A study of Mus musculus with 86 samples.

Results

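Hearts of untreated B2KO mice were compared with hearts of untreated FVB mice, 10 arrays in each group, chosen by the line and treatment in the array titles. These are 20 of the 86 deposited arrays. FVB is an inbred wild-type line. The labels do not expand the name B2KO, give the origin of its background or state age or sex. Mice of either group received no infusion, and all were killed under avertin before total RNA of the heart was taken. Treated mice of the same lines, used below as a separate set of arrays, had received isoproterenol at 120 µg/g/day for 14 days (10 B2KO arrays, after a duplicate was counted once, and 12 FVB arrays). Untreated C57BL/6 (11 arrays) and B6129SF2/J (10 arrays) hearts are cited for levels.

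Beta-adrenergic receptors are G protein-coupled receptors for adrenaline and noradrenaline, and isoproterenol is a synthetic agonist of them. They raise cyclic AMP through the stimulatory G protein and adenylyl cyclase, and G protein-coupled receptor kinases and arrestins switch them off. In cardiomyocytes cyclic AMP acts through protein kinase A on calcium channels, phospholamban and the ryanodine receptor.

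Values are log2 of the deposited intensity, on which 0 is the median of the array, and each gene is read from 1 probe set. Differences are B2KO minus FVB, ± SE, from limma over all 8 groups of the series, so a positive difference means a higher reading in B2KO. The titles number the arrays within a group and say nothing further on the source of each sample, and p-values measure the spread between these samples. The labels of the line were not checked against a targeted gene.

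The arrays differed in quality. The signal at the 3′ end of the Gapdh control exceeded that at the 5′ end by 7.31 log2 units in B2KO replicate 8, 2.06 in FVB replicate 10 and 1.77 in B2KO replicate 1, and lay between −0.39 and 0.39 in the others. This difference averaged 0.78 ± 2.38 (SD, n = 10) in B2KO and 0.13 ± 0.72 (SD, n = 10) in FVB (two-sided permutation test with 100000 resamples, p = 0.653). The median correlation with the other arrays was 0.831 in B2KO replicate 8, 0.902 in FVB replicate 10, 0.921 in B2KO replicate 1, 0.936 in FVB replicate 1 and 0.938 in FVB replicate 2, against 0.947 to 0.963 in the other 15. These 5 arrays were kept in the values below, and results without them are given where they matter. FVB replicates 1 to 4 were deposited with fewer decimal places than the other 16 arrays.

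**Figure D1:**
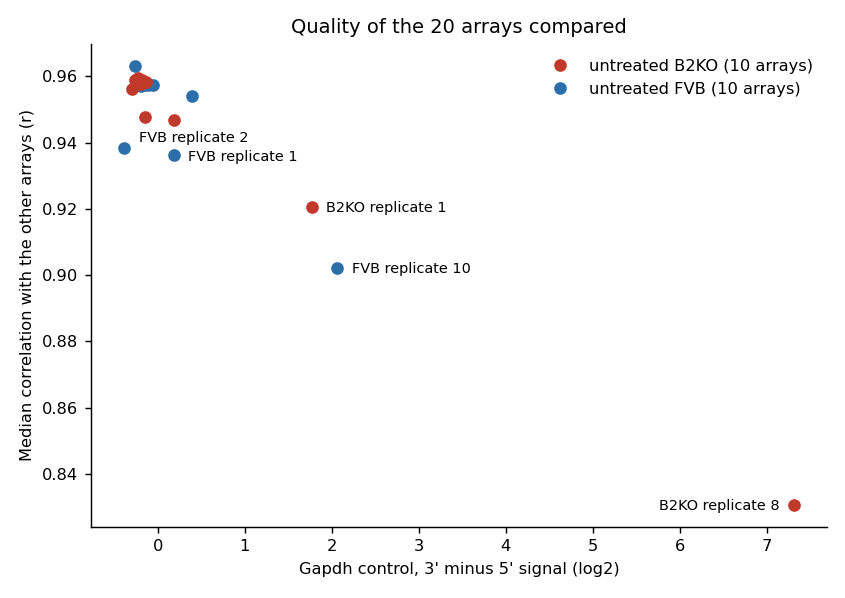
Each point is 1 of the 20 arrays, with the 3′ minus 5′ signal of the Gapdh control on the horizontal axis (log2) and the median correlation with the other arrays on the vertical axis. B2KO replicate 8 stands alone at 7.31 and 0.831, and the 5 named arrays are those with a median correlation under 0.94.

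B2KO replicate 1 read 3.20 at Xist, the RNA of the inactive X chromosome, where the other 19 arrays read at most −0.05. It read −0.57 at the Y-linked gene Eif2s3y, where the other B2KO arrays read 4.11 to 6.65 and the FVB arrays 3.18 to 5.44. Its RNA thus had the pattern of a female heart and that of the others the pattern of male hearts. Y-linked Kdm5d and Uty gave group means of 1.79 and 1.70 in B2KO and 1.72 and 1.78 in FVB.

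All 10 cardiomyocyte markers, among them Myh6, Tnnt2 and Ryr2, read above the array median in both groups. Their summed linear level ran from 11651 to 30725 in B2KO and from 15159 to 20000 in FVB. The 3 surfactant genes of lung epithelium read under the array median in both groups, as did 6 of 7 lymphocyte markers and 5 of 6 skeletal muscle markers. With the secretory gene Scgb1a1, the summed level of the 4 lung markers ran from 1.35 through 2.21 to 178 in B2KO and from 1.28 through 2.17 to 3.87 in FVB.

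How many genes differed between the untreated lines depended on the weight given to the arrays. Of 11962 genes tested, 2 passed an adjusted p of 0.05 by limma in the plain fit (0.0167% of the genes), with 1 higher and 1 lower in B2KO. When each array was weighted by its quality, 117 passed (0.978%), 48 higher and 69 lower. At an unadjusted p under 0.05 there were 466 genes (3.9%), 339 higher in B2KO (2.83%) and 127 lower (1.06%). Chance alone gives about 5% at this threshold, so the count of 466 shows no excess over chance. The balance of higher and lower genes turned without the 5 arrays that stood apart, with 81 higher and 252 lower. Under array weights it was 693 and 659. The median difference over all genes was 0.07, or −0.06 without the 5 arrays, and in the plain fit its 5th and 95th percentiles were −0.37 and 0.45. There were 35 genes that differed by more than 1 log2 unit, and no gene had all arrays of one group above all arrays of the other. Arrays were also simulated with independent normal noise of the spread of each gene. In them 67 genes were changed by 0.5 log2, 67 by 1 and 66 by 2. The same fit found 8.96%, 65.7% and 100% of these. Such shares depend on how many genes were changed. No simulated array was made to stand apart, so the shares may not hold for the real arrays.

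BC023105 was higher in B2KO. The 10 B2KO arrays ran from 0.13 through a median of 1.55 to 3.91, and the FVB arrays from −1.75 through −1.23 to 2.58. All B2KO arrays lay above the array median and 8 of 10 FVB arrays lay below it, and the groups overlapped because FVB replicate 7, at 2.58, lay above all but 1 of the B2KO arrays. The difference was 2.42 ± 0.44 (limma adjusted p = 0.00467), and 2.80 without FVB replicate 7. Untreated B6129SF2/J hearts averaged 0.98 ± 1.00 (SD, n = 10) and untreated C57BL/6 hearts −0.65 ± 1.03 (SD, n = 11). The call was lost when only the groups compared were fitted (2.42, adjusted p = 0.0729), also without the 5 arrays that stood apart (2.64, 0.0719), and without FVB replicates 1 to 4 together (2.37, 0.199).

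Plet1os, an antisense transcript named after the neighbouring gene Plet1, was lower in B2KO, and its B2KO arrays fell into separate levels. Replicates 1, 3, 5, 6, 7 and 9 read 4.24, 4.63, 4.25, 5.80, 4.78 and 4.94, while replicates 2, 4, 8 and 10 read −1.11, −1.92, −0.64 and −0.37. The FVB arrays ran from 5.34 through 6.21 to 7.22. Of the 6 higher B2KO arrays only replicate 6 reached the range of FVB, and the other 4 lay more than 5 log2 units below it. The difference was −3.67 ± 0.73 (limma adjusted p = 0.0178). The level was also spread widely in B6129SF2/J, where untreated hearts ran from 1.07 to 5.51 and treated hearts from −2.39 to 4.58. It was narrow in untreated C57BL/6, at 4.11 to 5.43. Leaving out B2KO replicate 2, 4, 8 or 10 or FVB replicate 10 ended the call, with adjusted p of 0.131, 0.190, 0.132, 0.124 and 0.0622 and differences of −3.54 to −3.18. The call was also lost with only the groups compared (−3.67, adjusted p = 0.157), with trend and robust moderation (−3.67, 0.0657), without 8 arrays of doubtful quality over the whole series (−3.20, 0.0891), without B2KO replicate 8 and FVB replicate 10 together (−3.20, 0.392) and without FVB replicates 1 to 4 (−3.64, 0.429). Without the 5 arrays that stood apart, the difference was −3.30 (0.405). Signal from Plet1 itself was not separated here.

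**Figure D2:**
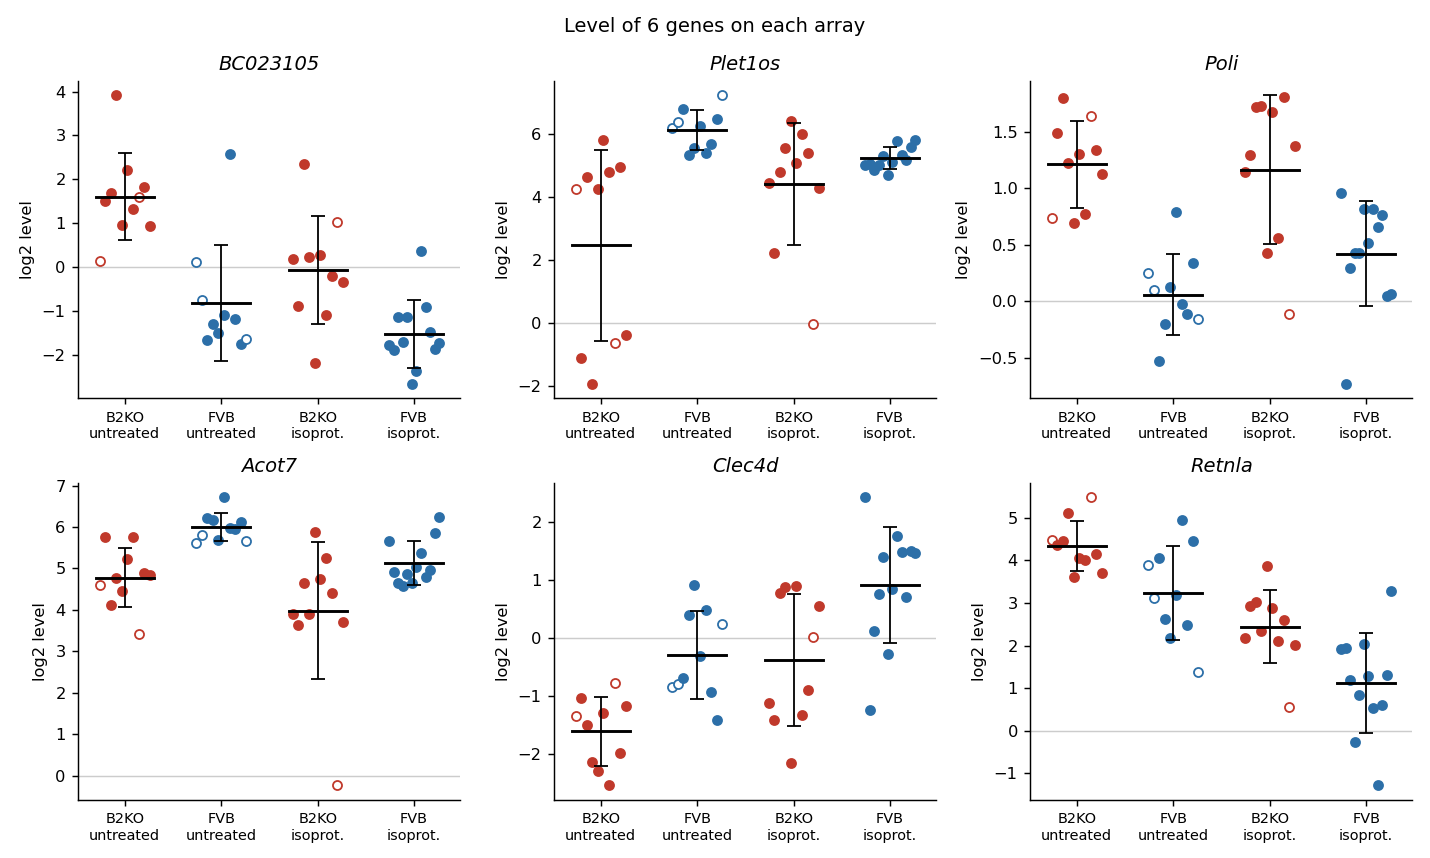
Each panel shows the log2 level of 1 gene on every array (0 is the array median), with the group mean as a bar and the SD as whiskers, for untreated B2KO and FVB (10 arrays each) and isoproterenol-treated B2KO (10) and FVB (12). Open circles are the 5 untreated arrays that stood apart and the treated B2KO array that failed. The bars and whiskers include them, while the treated differences of single genes in the text leave the failed array out. BC023105 and Poli are higher in both B2KO groups, Acot7 and Clec4d lower, and Plet1os falls into separate levels in untreated B2KO.

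The 10 genes with the next smallest p-values did not pass the adjustment, and they were singled out after their values were seen. Of these, 3 genes, each on the chromosome of BC023105, read higher in B2KO. Poli encodes DNA polymerase iota, which copies across damaged bases. Its B2KO arrays ran from 0.69 through 1.27 to 1.80 and its FVB arrays from −0.53 through 0.04 to 0.79, so that the groups met only at their edges, and the difference was 1.15 ± 0.27 (limma adjusted p = 0.160). Untreated B6129SF2/J and C57BL/6 hearts averaged 1.19 and 1.09 at Poli, and FVB, at 0.06, was the low line. Elac1, a tRNA-processing ribonuclease, differed by 0.81 ± 0.20 and Cyb5a, cytochrome b5, by 0.90 ± 0.24, the latter with B2KO replicate 8 at 8.55 above all others. Without the 5 arrays that stood apart, Elac1 differed by 0.63 and Cyb5a by 0.37.

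The other 7 lie on other chromosomes. Acot7, an acyl-CoA thioesterase, ran from 3.43 through 4.80 to 5.77 in B2KO and from 5.61 through 5.97 to 6.72 in FVB, a difference of −1.21 ± 0.33 (limma adjusted p = 0.385). Spsb1, an adaptor of a ubiquitin ligase, lies near Acot7 and differed by 0.98 ± 0.27. Apoa2, an apolipoprotein of high-density lipoprotein, differed by −1.28 ± 0.31 and the scaffold gene Cnksr1 by −0.97 ± 0.25, with all 10 B2KO arrays under the FVB mean in both. Aph1b, a subunit of gamma-secretase, differed by 1.26 ± 0.32, Ints14, a subunit of the Integrator complex, by 1.13 ± 0.30, and Trnp1, a nuclear protein, by 1.21 ± 0.33. Ints14, Aph1b and Trnp1 differed by 0.63, 0.86 and 0.96 without the 5 arrays that stood apart, and by 0.61, 0.77 and 0.62 under array weights.

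Genes on the chromosome that carries BC023105 were examined next. There, 33 of 304 tested genes had an unadjusted p under 0.05, or 10.9%, against 3.9% of all genes tested. This was the highest share of the 20 chromosomes counted (the autosomes and X), and the next was 7.04%. The chromosome was singled out after the value of BC023105, itself 1 of the 33, had been seen. Of the 33, 27 read higher in B2KO and 6 lower. The share was 6.25% without the 5 arrays that stood apart, when it was 2.78% of all genes, and it was again the highest. In the fit that weights each array by its quality, 13 of these 304 genes passed the adjusted threshold (4.28%), against 0.978% of all genes.

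Some of the 33 lay side by side. Among the 5 consecutive tested genes from Gm4951 to Dctn4, 4 had an unadjusted p under 0.05, namely Gm4951, BC023105, Smim3 and Dctn4. This stretch and the next were drawn around genes already under 0.05, so their shares are set in part by that choice. Gm4951 differed by −0.98 ± 0.29, opposite in sign to BC023105, and Dctn4, a dynactin subunit, by 0.46 ± 0.22. All 3 consecutive tested genes Afg3l2, Spire1 and Cep76 were among the 33. Afg3l2, a protease of the inner mitochondrial membrane, differed by 0.67 ± 0.26 and Cep76, a centriole protein, by −0.73 ± 0.22. Further from these lay Garem1, an adaptor of growth factor signalling (0.86 ± 0.26), Fgf1, fibroblast growth factor 1 (1.26 ± 0.44), Myo5b, a vesicle motor (0.68 ± 0.25), the zinc finger gene Zfp236 (−0.50 ± 0.22) and Rab27b, a secretory GTPase (0.49 ± 0.24). Rab27b differed by 0.32 without B2KO replicate 8 and by 0.21 without the 5 arrays that stood apart, and Dctn4 by 0.29 without these 5.

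**Figure D3:**
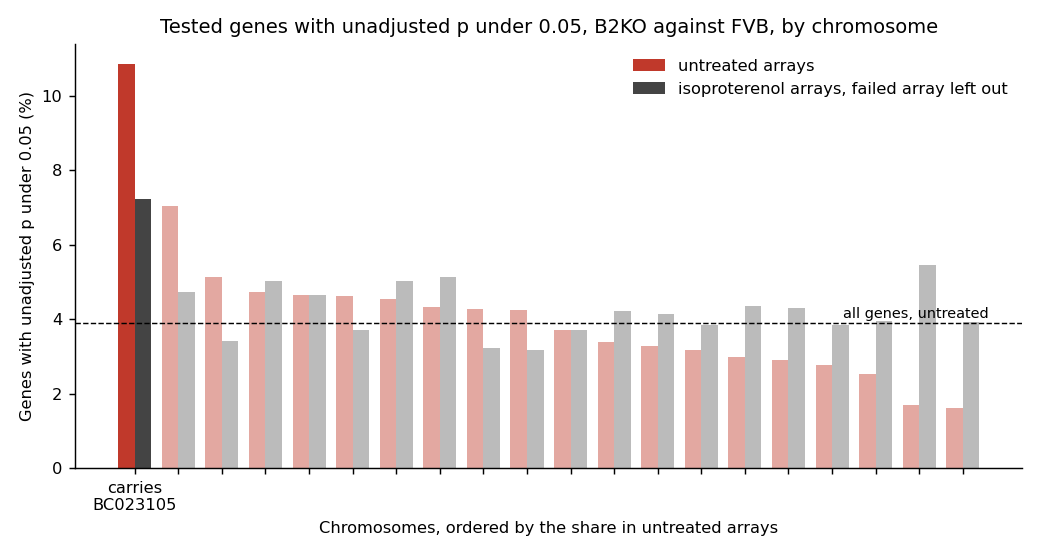
Bars give the percentage of tested genes with an unadjusted limma p under 0.05 for B2KO against FVB on each of 20 chromosomes, in untreated arrays (red) and in isoproterenol-treated arrays without the failed array (grey), ordered by the untreated share. The chromosome of BC023105 is drawn in full colour, at 10.9% and 7.24%, and the dashed line marks 3.9%, the share over all genes in untreated arrays.

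The untreated levels of these genes were set beside those of the other lines. At BC023105, Gm4951, Garem1, Cep76 and Afg3l2, B2KO averaged 1.61, −0.45, 5.15, 1.65 and 5.69. B6129SF2/J averaged 0.98, −0.43, 4.96, 1.77 and 5.45 at the same genes, and FVB −0.81, 0.54, 4.29, 2.37 and 5.02. Of the 33 genes, 30 had a B2KO mean nearer to B6129SF2/J than to FVB (90.9%), against 353 of 433 genes with an unadjusted p under 0.05 on other chromosomes (81.5%). Both sets were chosen for their distance from FVB, so shares above that of all genes (37.8%) follow in part from the choice. The median distance from B2KO to B6129SF2/J was 0.18 log2 for the 33 genes and 0.28 for the 433. Of all 304 tested genes on the chromosome of BC023105, 148 were nearer to B6129SF2/J than to FVB (48.7%). Nearer to C57BL/6 than to FVB were 24 of the 33 genes (72.7%), 334 of the 433 (77.1%) and 34.7% of all genes. By that line the 33 genes did not stand out from the 433.

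Isoproterenol-treated arrays of B2KO and FVB gave a comparison of the same lines that shares no array with the untreated one, although both draw on 1 estimate of the spread. Replicate 10 of treated B2KO had failed (its median correlation to all others was 0.573) and was left out of these values. With it in, the median difference over all genes was −0.23, and 2 genes passed the adjusted threshold (0.0167%). Without it the median was −0.01, 3 genes passed (0.0251%), and 520 had an unadjusted p under 0.05 (4.35%). This share too was under the 5% that chance alone gives.

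Of the 33 genes on the chromosome of BC023105, 28 had the same sign in treated hearts (84.8%), against 53.2% of the 466 genes and 49.0% of all genes tested. Genes with an unadjusted p under 0.05 and the same sign in both comparisons numbered 33 over all chromosomes, or 7.08% of the 466. Of these, 11 lie on the chromosome of BC023105, or 33.3% of the 33 genes under 0.05 on it. They are BC023105, Poli, Gm4951, Cep76, Garem1, Fgf1, Myo5b, Afg3l2, Zfp236, Dctn4 and Rab27b. In treated hearts BC023105 differed by 1.34 ± 0.44, Poli by 0.88 ± 0.25, Gm4951 by −1.05 ± 0.28 and Cep76 by −0.64 ± 0.20. The share of genes with an unadjusted p under 0.05 on that chromosome was 7.24% in treated hearts, again the highest of the 20. Plet1os did not recur, with −0.32 ± 0.70.

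**Figure D4:**
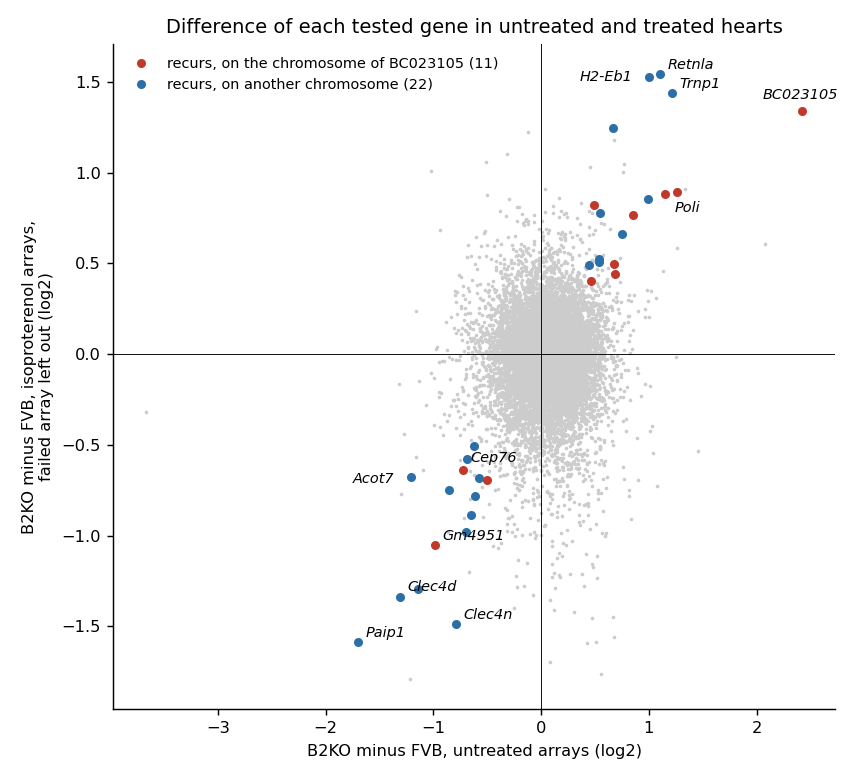
Each point is 1 of 11962 genes, with the B2KO minus FVB difference (log2) in untreated arrays on the horizontal axis and in isoproterenol-treated arrays, without the failed array, on the vertical axis. Coloured points are the 33 genes with an unadjusted p under 0.05 and the same sign in both, 11 on the chromosome of BC023105 (red) and 22 on others (blue).

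On the other chromosomes 22 genes recurred, or 5.08% of the 433 with an unadjusted p under 0.05 in untreated hearts. In treated hearts 4.35% of all genes were under 0.05 in either direction. Of the 433, 220 had the same sign in treated hearts (50.8%), against 48.8% of all genes on these chromosomes. The examples that follow were picked after their values were seen, and they went in both directions. Retnla, a secreted product of alternatively activated macrophages, ran from 3.61 through 4.25 to 5.48 in untreated B2KO and from 1.38 through 3.16 to 4.94 in FVB. The difference was 1.11 ± 0.34 in untreated and 1.54 ± 0.32 in treated hearts. In untreated hearts it was 0.76 both without the 5 arrays that stood apart and under array weights. The neighbouring genes Clec4d and Clec4n, C-type lectin receptors of myeloid cells, differed by −1.31 ± 0.36 and −0.79 ± 0.31 in untreated hearts and by −1.34 ± 0.36 and −1.49 ± 0.30 in treated hearts. Clec4d lay under the array median on all 10 untreated B2KO arrays. The untreated FVB arrays also averaged under it, at −0.30, and ran from −1.41 to 0.90. Fcgr2b, the inhibitory Fc receptor, differed by −0.65 ± 0.26 and −0.89 ± 0.26. Agtr1a, the type 1a angiotensin II receptor, differed by 1.00 ± 0.35 and 0.86 ± 0.25, with B2KO arrays from 3.15 through 5.61 to 7.30 and FVB arrays from 2.88 through 4.51 to 5.18.

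Some recurring genes lay near each other. Among 53 consecutive tested genes from Zfp991 to Acot7, 9 had an unadjusted p under 0.05 and 5 recurred, namely Zfp991, 2510039O18Rik, Fbxo44, Slc25a33 and Acot7. Both ends of the stretch were set at recurring genes, and on the whole chromosome 32 of 738 tested genes (4.34%) had an unadjusted p under 0.05. Glo1, glyoxalase 1 (0.55 ± 0.23 untreated, 0.78 ± 0.21 treated), and H2-Eb1, a class II histocompatibility chain (1.00 ± 0.42 and 1.53 ± 0.41), also recurred. Glo1 differed by 0.35 without B2KO replicate 8 and by 0.23 without the 5 arrays that stood apart in untreated hearts. In untreated B2KO H2-Eb1 ran from −0.55 to 3.51, and only 6 of 10 arrays lay above the FVB mean. Most histocompatibility and antigen presentation genes went the other way, with 12 of 18 below 0 in untreated hearts (median −0.13). In treated hearts the median of the 18 was −0.46. There 2 were higher and 8 lower at an unadjusted p under 0.05, beside 4.35% of all genes in either direction. At an adjusted p of 0.05 no gene differed between the untreated and treated comparisons (interaction in limma, smallest adjusted p = 0.496), and 1066 genes had an unadjusted p under 0.05 for this difference, 8.91% of those tested, with the failed array in this fit.

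Genes of the beta-adrenergic pathway were read as lists. None of the genes of the lists in this and the next paragraph passed the adjusted threshold, and each list is given by its median difference, to be read beside 0.07 over all genes, and by its number with an unadjusted p under 0.05, to be read beside 3.9%. Of 10 tested adrenergic receptors, receptor kinases and arrestins, 1 was under 0.05 and the median was 0.25, with Adra1b, an alpha1 receptor, furthest from 0 (0.60 ± 0.42, and 0.36 without FVB replicate 10). Of 30 genes of G proteins, adenylyl cyclases and protein kinase A, none was under 0.05 (median 0.05), and Gnb3, a G protein beta subunit, was furthest (−0.61 ± 0.31). None of 16 phosphodiesterases was under 0.05 (median 0.11), the furthest being Pde9a (0.35 ± 0.24). Of 21 calcium-cycling genes 1 was (median 0.08), and Casq1, a calsequestrin, was furthest (0.60 ± 0.34).

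Among 28 ion channels and gap junction genes the median was 0.16. Cacna2d1, the alpha2delta subunit of voltage-gated calcium channels, ran from 5.41 through 6.40 to 7.46 in B2KO and from 5.15 through 5.64 to 6.17 in FVB. Its difference was 0.73 ± 0.24, and it passed under array weights (0.67, adjusted p = 0.0275). Kcne1, a potassium channel subunit, differed by −0.86 ± 0.46. Of 30 sarcomere and Z-disc genes 2 were under 0.05 (median −0.01). Myh7, the slow myosin heavy chain that returns in hypertrophy, ran from 4.94 through 5.76 to 8.88 in B2KO and from 5.76 through 7.72 to 10.32 in FVB, a difference of −1.16 ± 0.42. It was the one gene under 0.05 among 25 genes of the hypertrophy response, whose median was 0.07. Of 49 matrix genes 4 were under 0.05 (median 0.14), with Cilp furthest (0.89 ± 0.38, and 0.42 without the 5 arrays that stood apart).

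Metabolic lists lay near the median of all genes. Fatty acid oxidation (38 tested), glycolysis (27), the tricarboxylic acid cycle (17), the respiratory chain (37) and ketone metabolism (4) had medians of 0.05, 0.04, 0.04, 0.10 and 0.09. In all, 1 gene was under 0.05 (Glo1, listed with glycolysis), where 3.9% of all genes were. The furthest members were Ppargc1a (−0.51 ± 0.41), Pfkm (−0.68 ± 0.50), Ogdh (−0.45 ± 0.54), Nnt (0.35 ± 0.29) and Acat1 (0.23 ± 0.30). B2KO replicate 8 read 1.54 at Pfkm where the other B2KO arrays read 8.42 to 9.67, and it read similarly low at Ogdh, Gpx4 (−1.10 ± 0.61, furthest of 27 antioxidant genes), Hspb7 (−0.90 ± 0.64, of 21 heat shock genes), Pdia3 (−0.80 ± 0.46, of 21 genes of endoplasmic reticulum stress) and Des (−0.82 ± 0.57, of 15 smooth muscle genes). Without the 5 arrays that stood apart these 6 genes differed by 0.02, 0.16, −0.48, 0.09, −0.44 and −0.07.

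Of the glucocorticoid targets and metallothioneins, 5 were lower in B2KO once arrays were weighted by quality. In the plain fit the 17 tested genes had a median of −0.29, and none passed the adjustment. Mt2 and Fkbp5 were lower at an unadjusted p under 0.05, where 1.06% of all genes were. Under array weights 5 were lower at an adjusted p of 0.05, where 0.577% of all genes were, namely Mt1, Mt2, Fkbp5, Sgk1 and Zbtb16. Without the 5 arrays that stood apart the median was −0.65, beside −0.06 over all genes, and 7 of 17 had an unadjusted p under 0.05 and were lower, where 2.11% of all genes were, but none passed the adjustment.

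Fkbp5, a chaperone of the glucocorticoid receptor that the hormone induces, read 4.64, 3.60, 2.88, 3.07, 4.43, 3.61, 2.91, 2.88, 3.65 and 3.59 in B2KO replicates 1 to 10. In FVB replicates 1 to 10 it read 3.05, 3.11, 3.66, 4.74, 5.85, 4.65, 4.75, 4.27, 3.88 and 4.45. FVB replicates 1 and 2 were the lowest of FVB and lay under the B2KO median of 3.60, and B2KO replicates 1 and 5 lay above the FVB median of 4.36. The difference was −0.71 ± 0.29, and −1.11 under array weights (limma adjusted p = 0.00394). Mt2, a metallothionein, ran from 3.58 through 4.36 to 6.01 in B2KO and from 4.42 through 5.34 to 7.45 in FVB, a difference of −0.82 ± 0.33, and −1.48 under array weights (limma adjusted p = 0.00042). Zbtb16, a transcription factor induced by glucocorticoids, ran from 2.50 to 4.36 in 9 B2KO arrays, while replicate 1 read 7.86. Lcn2, a secreted iron-carrier protein, lay furthest from 0 in the list (−1.02 ± 0.52), but at −0.52 without FVB replicate 5. Treated hearts gave a median of −0.13 for the list with none under 0.05.

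The promoters of both metallothionein genes are shown because the pair read lower together, with the letters TGCNCNC, which cover the core of the metal-response element, in capitals where they occur on either strand. They run from 250 bases before to 50 bases after the start of the gene, from RefSeq in build GRCm38.p6. The letters stand at 3 places in Mt1 (chr8:94178839-94179138, plus strand) and 6 in Mt2 (chr8:94172368-94172667, plus strand), and 51.0% of the 32851 promoters of that table hold them at least once.
Mt1: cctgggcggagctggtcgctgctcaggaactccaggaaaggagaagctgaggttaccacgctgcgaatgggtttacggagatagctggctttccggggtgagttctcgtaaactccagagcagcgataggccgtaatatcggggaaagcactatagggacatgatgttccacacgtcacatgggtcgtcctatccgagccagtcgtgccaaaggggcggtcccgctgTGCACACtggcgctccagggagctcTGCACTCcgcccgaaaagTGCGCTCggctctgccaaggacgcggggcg
Mt2: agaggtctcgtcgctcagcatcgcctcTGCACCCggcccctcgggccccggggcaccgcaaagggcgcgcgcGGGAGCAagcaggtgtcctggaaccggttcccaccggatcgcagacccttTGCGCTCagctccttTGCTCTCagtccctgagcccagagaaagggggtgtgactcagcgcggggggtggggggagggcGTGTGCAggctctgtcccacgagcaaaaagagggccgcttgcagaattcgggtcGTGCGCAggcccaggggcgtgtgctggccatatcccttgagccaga

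Clock genes differed in opposite directions, and none passed the adjustment in the plain fit. The median of 19 was −0.21, with 1 higher and 2 lower at an unadjusted p under 0.05, where 2.83% and 1.06% of all genes were. Arntl, the activator of the clock also called Bmal1, ran from 0.54 through 2.47 to 3.60 in B2KO and from 0.03 through 1.46 to 2.87 in FVB (1.03 ± 0.33). Ciart, a repressor of the clock, ran from −1.19 through 0.50 to 2.11 and from −0.22 through 1.41 to 2.75 (−0.98 ± 0.35). Per2, another repressor, differed by −0.80 ± 0.42, or −0.51 without B2KO replicate 6. Under array weights Ciart and Per2 were lower (−1.28 and −1.66, limma adjusted p = 0.0329 and 0.0177), and Arntl was not past the threshold (0.0593). In treated hearts the differences were −0.39 ± 0.31 for Arntl, 0.03 ± 0.35 for Ciart and 0.33 ± 0.42 for Per2. The labels give no time of day at which hearts were taken.

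The promoter of Ciart (chr3:95882179-95882478, minus strand, GRCm38.p6, RefSeq) is shown with the E-box CACGTG, the letters to which the Arntl protein binds with its partner, in capitals. They stand at 3 places, reading the same on both strands, and 7.15% of the promoters in the table hold them. The letters were also searched in the promoter of Dbp, another clock gene, and stood at no place. The letters GGGTCA, searched in both promoters of Arntl, stood at no place on either strand, and 13.7% of the promoters hold them. Only this spelling was searched. The letters AGGTCA do stand in the Arntl promoter at chr7:113207261-113207560 (plus strand), and how many promoters hold them was not counted.
Ciart: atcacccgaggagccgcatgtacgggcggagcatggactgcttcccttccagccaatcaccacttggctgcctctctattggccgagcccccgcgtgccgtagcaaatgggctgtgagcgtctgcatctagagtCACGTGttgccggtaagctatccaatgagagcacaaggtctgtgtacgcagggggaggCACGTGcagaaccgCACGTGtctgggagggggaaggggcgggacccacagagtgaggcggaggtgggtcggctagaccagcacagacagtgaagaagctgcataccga

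**Figure D5:**
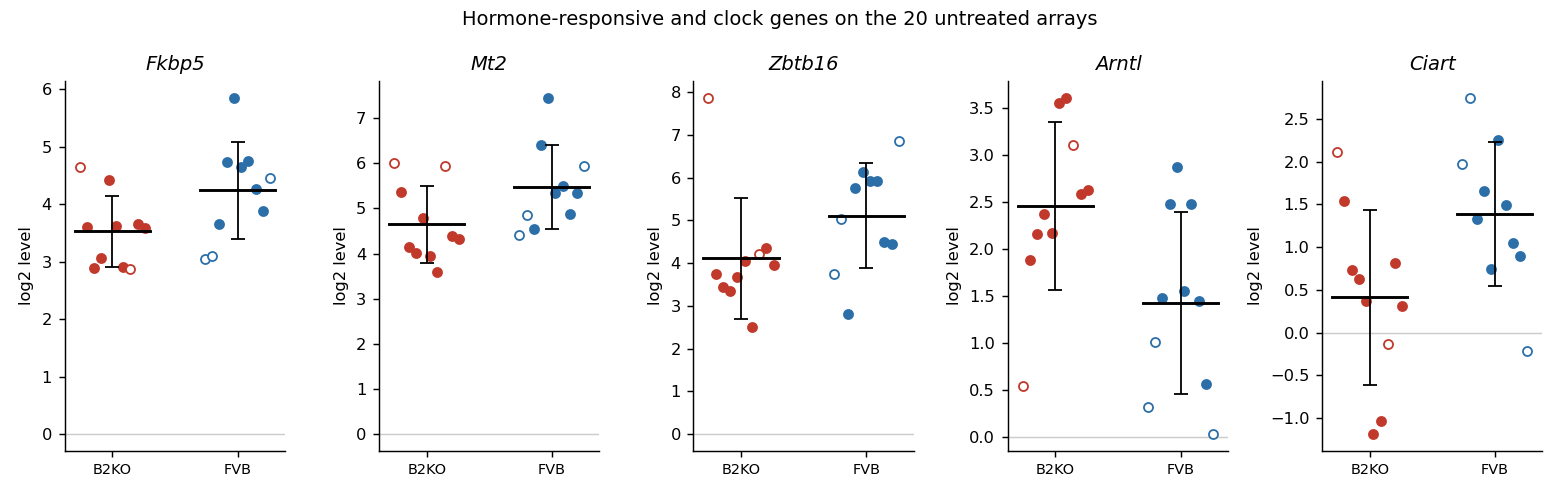
Points are the log2 levels of 5 genes on the 10 untreated B2KO and 10 untreated FVB arrays, in replicate order within a group, with the mean as a bar and the SD as whiskers. Open circles are the 5 arrays that stood apart, which include B2KO replicate 1, at 7.86 the highest array at Zbtb16.

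Inflammatory lists had medians below that of all genes, and no member passed the adjustment in the plain fit. Of 18 complement and acute phase genes the median was −0.36 and 2 were lower at an unadjusted p under 0.05, where 1.06% of all genes were. The 2 were Saa3, an acute phase protein (−1.31 ± 0.43), and Serpina3n, a protease inhibitor (−1.13 ± 0.48). Saa3 ran from −1.53 to 0.69 in B2KO and from −0.49 to 1.28 in 9 FVB arrays, with FVB replicate 5 at 3.37. Of 25 chemokines and cytokines the median was −0.21. The neighbouring chemokines Ccl6 and Ccl9 differed by −0.76 ± 0.34 and −0.70 ± 0.27, and Cxcr4, a chemokine receptor, by 0.77 ± 0.36. Ccl9 ran from 3.01 through 3.20 to 3.99 in B2KO and from 2.37 through 4.09 to 5.12 in FVB. Without the 5 arrays that stood apart Ccl9 was 1 of the 2 genes that passed the adjustment, at −1.34, and BC023105 was the other, at 2.64. Of 25 macrophage genes the median was −0.18, with 1 higher and 3 lower at an unadjusted p under 0.05. Of all genes 2.83% were higher and 1.06% lower at that threshold. Under array weights 5 macrophage genes were lower at an adjusted p of 0.05, as many as among the glucocorticoid targets and metallothioneins. So were 3 complement and acute phase genes and 2 chemokines and cytokines, and none of these 3 lists held a higher one. Of all genes 0.577% were lower in that fit. The summed level of the 6 macrophage markers ran from 76.5 through 92.1 to 175 in B2KO and from 42.8 through 87.3 to 149 in FVB, on the linear scale, and its part in these differences was not tested. In whole hearts, fewer cells of a type and less RNA per cell cannot be told apart.

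The other lists held no gene past the adjusted threshold in the plain fit. Their furthest members were Tfrc for iron handling and for erythroid genes (0.97 ± 0.45), Egr3 for immediate early genes (0.96 ± 0.49), H2-Eb1 for histocompatibility genes, Irgm2 for interferon-stimulated genes (−0.44 ± 0.28), Jchain for lymphocyte genes (0.81 ± 0.66), and Kit for mast cell and melanocyte genes (0.71 ± 0.38). Dpt led fibroblast genes (1.02 ± 0.32) and Sox18 endothelial genes (−0.66 ± 0.37), whose 19 members had a median of −0.33 with none under 0.05. Other leading members were Scd1 for adipocyte genes (0.48 ± 0.50), Scgb1a1 for lung genes (1.46 ± 0.81), Pam for atrial genes (0.42 ± 0.62), Myl1 for skeletal muscle genes (1.34 ± 0.59) and Dbh for nerve genes (0.44 ± 0.21). Top2a led the cell cycle (0.68 ± 0.44), Trim54 ubiquitin ligases and autophagy (−0.54 ± 0.41), Rps27 ribosomal proteins (−0.35 ± 0.29), Akr1c14 detoxification (0.58 ± 0.29) and Eif2s3x the sex-linked genes (0.23 ± 0.29). Some of these went against the median of their list. It was −0.44 for mast cell genes (5 of 7 below 0) and −0.08 for immediate early genes (14 of 25). For skeletal muscle genes it was −0.07 (4 of 7 below 0), for detoxification −0.09 (12 of 22) and for ribosomal proteins 0.07 (7 of 24). Among the leading members, 1 array moved several by over 1.5 times. Sox18 differed by −0.28 and Trim54 by −0.23 without B2KO replicate 8, and Pam by 0.09. Without B2KO replicate 5 Scgb1a1 differed by 0.72, Jchain by 0.38 and Top2a by 0.43. Scd1 differed by 0.25 without B2KO replicate 4, Dbh by 0.27 without FVB replicate 5 and Eif2s3x by 0.14 without FVB replicate 1. Tfrc differed by 0.40, Akr1c14 by 0.14, Irgm2 by −0.21 and Rps27 by −0.16 without the 5 arrays that stood apart. Of 28 tested genes known to differ between inbred strains, 5 had an unadjusted p under 0.05, Apoa2 among them, where 3.9% of all genes did. The median of the 28 was 0.06.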

How the data were processed

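The submitters' processing notes name GCRMA, without a version, for the deposited intensity values. The authors' values had a median of 1 on each array, and log2 was taken. Genome build and annotation were not given in the sources used here. Of 45101 probe sets, 34945 with 1 symbol in the platform's annotation gave 18193 genes (99.4% found in RefSeq, GRCm38.p6), and the probe set of the highest mean stood for its gene. Genes whose highest group mean exceeded log2 0 were tested (11962). Treated B2KO replicates 4 and 9 were duplicates (r = 0.99999976) and were averaged, so 85 arrays were fitted with limma 3.58.1 in R 4.3.3, with 1 mean per group, and p-values were adjusted by Benjamini-Hochberg. The number of arrays limits the precision. A probe that covers a sequence difference between strains can give a lower signal at the same RNA level.

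Named were sex-linked genes, genes past the threshold and the member of each of 43 lists furthest from 0. One further set of genes under this rule is not reported here. All other genes were named after their values were seen. The groups, lists and rules were chosen with earlier results of these data known. In the simulation 11 unchanged genes were called among 11962, which was 8.66% of all genes called in it. Alternatives covered scaling, filters, probe sets, the arrays fitted, array weights and an RNA covariate. Plots and permutation tests used Python 3.11.15 with scipy 1.17.1.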

Additional observations from a re-analysis of the deposited data

Results flagged for a closer look

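Of 160 sets of 10 untreated arrays checked, 30 (18.8%) had 1 array far from the other 9, where chance gives about 1 in 20. The sets of one array are not independent of each other.

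B2KO replicate 8 stood apart in 15 of them. Its Gapdh 3′ minus 5′ difference was 7.31 and its median correlation with other arrays 0.831. It read low at Pfkm (1.54), Ogdh (2.73), Gpx4 (−0.73), Hspb7 (0.22), Pdia3 (−0.29), Des (1.02), Sox18 (1.48) and Trim54 (4.20). It read high at Cyb5a (8.55), Fcgr2b (3.94), Glo1 (8.57), Ccl9 (3.99) and Dpt (8.46).

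FVB replicate 10 stood apart in the same measures, at 2.06 and 0.902, and at Spsb1 (4.42), Agtr1a (2.88), Myh7 (10.32), Nnt (7.78) and Acat1 (6.74). B2KO replicate 1 stood apart at Xist (3.20), Eif2s3y (−0.57), Zbtb16 (7.86) and Ppargc1a (7.52). The remaining cases were FVB replicate 7 at BC023105 (2.58) and Jchain (1.23), FVB replicate 5 at Saa3 (3.37) and B2KO replicate 5 at Dbh (1.65).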

How the results depend on the processing

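The count of genes past the threshold between untreated lines was 2. It was 117 with array weights (48 higher in B2KO), 6 after centring each array (2 higher) and 6 without the failed treated array (4 higher), 5 with only the untreated groups, and 4 with only the groups compared and without the 5 arrays that stood apart. It was 1 with the stricter filter, with only the groups compared, with trend and robust moderation, and without B2KO replicate 8 and FVB replicate 10 together. It was 0 without FVB replicates 1 to 4 together, with 244 genes at an unadjusted p under 0.05 by limma. Leaving out 1 array gave 1 to 3, the loss in each case being Plet1os. The 117 genes of the array weights included both genes of the plain fit, all had the same sign there, and 69 had an unadjusted p under 0.05 in it. In treated hearts the count was 2, and it was 48 with array weights, 10 after quantile normalization, 7 after centring, 5 without the 8 arrays in doubt, 4 with the mean of probe sets or an RNA covariate, and 0 with only the groups compared (409 at an unadjusted p under 0.05). Leaving out 1 treated array gave 0 (B2KO replicate 7) to 41 (FVB replicate 2). The cause of these changes was not tested. The alternatives without the 5 arrays, without FVB replicates 1 to 4 and their combinations were chosen after seeing the data.

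With the replicate block the count was 2 in untreated and 3 in treated hearts. Deviations of same-numbered arrays correlated at −0.24 to 0.20, over 0.1 in 4 of 10 pairs. Of the 10 B2KO arrays, 3 correlated best with the FVB array of their number. These values do not settle whether same-numbered samples share more than a number.

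Signs turned at some genes, and these included 4 that had differences of −0.90 to −0.45 in the plain fit (Hspb7, Des, Pfkm and Ogdh). With array weights the difference was 0.070 at Pfkm, 0.240 at Ogdh, 0.105 at Hspb7 and −0.083 at Pam. Without the 5 arrays it was 0.018, 0.157, 0.087 and −0.010 at the same genes and −0.056 at Acat1, also in both combinations with this setting. Without B2KO replicate 8 and FVB replicate 10, or without the 8 arrays in doubt, it was 0.086 at Pfkm, 0.248 at Ogdh and 0.039 at Des. Leaving out 1 array gave −0.824 to 0.079 at Pfkm and −0.566 to 0.217 at Ogdh. The Gapdh difference of 0.653 became −0.073 without B2KO replicate 8 and 0.142 without FVB replicate 10 as well.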
